A study of Homo sapiens with 12 samples.

Results

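MTND2P28, MTCO1P12, MTCO2P12, MTATP6P1 and MTCO3P12 are copies of mitochondrial genes that lie in the nuclear genome, in a row on chromosome 1. They were picked by name, as the 5 rows of the deposited gene table to be set beside the 37 rows of the mitochondrial genome itself, out of 56269 rows in all. The choice was made with their levels in these libraries already known, so the levels below are a description and carry no test.

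The RNA came from HEYA8, an established human ovarian cancer cell line, grown at steady state in RPMI-1640 medium with serum and without added ligand. The 12 libraries form 4 groups of 3: cells carrying the control vector, cells expressing S534A betaglycan (CS-BG), cells expressing S545A betaglycan (HS-BG), and cells expressing ∆GAG-BG, in which both serines that carry glycosaminoglycan chains are changed to alanine. Betaglycan, encoded by TGFBR3, is a co-receptor for TGF-β, and all constructs were delivered in a pHIV-dTomato lentivirus and the infected cells sorted by dTomato. All groups come from 1 cell line, and nothing in the labels says that the 3 libraries of a group came from separate infections or sorts, so p-values measure only the spread between these libraries. Library totals ran from 16410001 to 29504297 counts.

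Human mitochondria carry a small circular genome, MT, that encodes core subunits of the respiratory chain, along with the rRNAs and tRNAs to translate them. During evolution, pieces of that genome were copied into the chromosomes, and such copies are called NUMTs. Copies of its protein genes are read in the wrong genetic code, and the 5 described here are annotated as pseudogenes. Where a NUMT is recent, its sequence is nearly that of the mitochondrial gene, whose RNA is among the most abundant of the cell, so that a short read can match both.

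The 5 copies span 5283 bases of the plus strand, from 629640 to 634922 of chromosome 1 (GRCh38), and each is annotated as an unprocessed pseudogene of 1 exon. MTND2P28 (629640 to 630683) copies the gene of an NADH dehydrogenase subunit in complex I. MTCO1P12 (631074 to 632616), MTCO2P12 (632757 to 633438) and MTCO3P12 (634376 to 634922) copy the genes of the core subunits of cytochrome c oxidase, complex IV, and MTATP6P1 (633696 to 634376) copies that of a proton channel subunit of ATP synthase, complex V. They follow the order of the mitochondrial genome and keep its spacing to within a few bases: the coordinate of a copy's first base minus that of its mitochondrial gene was 625169 to 625171 for all 5.

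Sequence identity between each copy and its mitochondrial gene was computed from GENCODE 29 transcripts. It was 98.7% for MTCO1P12, 98.5% for MTATP6P1, 98.4% for MTND2P28, 98.2% for MTCO2P12 and 98.2% for MTCO3P12, which holds only the first 547 of the 784 bases of its parent. Over 4494 aligned bases there were 69 differences, of which 64 were transitions and 5 transversions. For the copy with the most counts (MTATP6P1) and the one with the fewest (MTCO2P12), the first gap-free stretch of 120 bases with the most differing bases is printed above the same stretch of the mitochondrial gene, with the differing bases in capitals, to show how few letters tell a copy from its parent. They lie at chr1:633768-633887 and chrM:8599-8718, and at chr1:632964-633083 and chrM:7793-7912, all on the plus strand.
MTATP6P1: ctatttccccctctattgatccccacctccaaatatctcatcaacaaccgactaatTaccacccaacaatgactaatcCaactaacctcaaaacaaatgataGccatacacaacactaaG
MT-ATP6: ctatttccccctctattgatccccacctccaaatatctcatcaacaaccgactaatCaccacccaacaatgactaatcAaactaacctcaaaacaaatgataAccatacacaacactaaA
MTCO2P12: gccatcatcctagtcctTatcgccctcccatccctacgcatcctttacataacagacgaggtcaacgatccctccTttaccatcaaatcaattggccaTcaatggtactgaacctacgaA
MT-CO2: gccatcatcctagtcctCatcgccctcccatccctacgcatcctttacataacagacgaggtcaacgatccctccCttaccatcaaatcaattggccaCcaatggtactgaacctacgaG
Each of these stretches differs from the parent at 4 positions, and no gap-free stretch of that length in either copy differs at more.

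The libraries were sequenced with paired reads of 150 bases, so it was counted how many windows of that length are letter for letter the same in copy and parent. MTND2P28 had 140 of 893 such windows (15.7%), including its first 266 bases, which hold no difference. MTCO1P12 had 202 of 1394 (14.5%), around a run of 245 identical bases. MTATP6P1, MTCO2P12 and MTCO3P12 had 0, of 532, 535 and 398, since their longest identical runs were 141, 108 and 124 bases. Any full-length read within these 3 copies would thus carry at least 1 letter that differs from the reference mitochondrial gene. For windows of 100 bases, nearer to a trimmed read, the counts were 402 of 1444 in MTCO1P12 (27.8%), 246 of 943 in MTND2P28 (26.1%), 69 of 582 in MTATP6P1 (11.9%), 14 of 585 in MTCO2P12 (2.39%) and 30 of 448 in MTCO3P12 (6.70%). Only annotated transcripts of the mitochondrial genes were compared, and the mitochondrial sequence of HEYA8 itself was not examined.

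Counts over the mitochondrial genome and counts over the copies were far apart. All 37 mitochondrial rows, the subunit genes, rRNAs and tRNAs, held 0 counts in all 12 libraries, and 3 counts in a library, the limit that a count of 0 allows, equal 0.1 to 0.182 CPM (the CPM used here are counts set against the library total, scaled by the trimmed mean of M values, TMM). This limit, like the other counting intervals given here, covers counting error only. The coordinates of these rows and of the 5 copies were those of GENCODE 29 in 37 of 37 and 5 of 5 cases. Whether the mitochondrial genome was part of the sequence the reads were aligned to, or its reads were removed, is not given in the sources used here. The 5 copies together held 170823 counts, from 0.0493% to 0.0691% of a library. Whether these counts stem from RNA of the chromosome 1 copies or from mitochondrial RNA cannot be told apart in a table of counts per gene, so a level below is a level of counts assigned to the copy. In bulk RNA, fewer cells that make an RNA and less of it per cell cannot be told apart either.

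MTATP6P1 took 89.2% of the counts of the 5 copies, and this share lay between 88.6% and 89.7% in every library. Its mean level over the 12 libraries was 521 ± 59.7 CPM (SD, n = 12), with a lowest library of 440 and a highest of 623 CPM, resting on 7553 to 16118 counts. Per kilobase of gene length that is 765 CPM, the 17th highest of the 16069 genes tested. The counts assigned to this pseudogene row thus ranked, per length, among the highest of the genes tested. From which RNA they came cannot be told apart.

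The other 4 copies were lower by large factors. Their identity to the parent gene differed from that of MTATP6P1 by less than 1 percentage point. MTCO1P12 stood at 31.0 CPM per kb (28.1 to 36.4 over the libraries, 721 to 1433 counts) and MTND2P28 at 12.4 CPM per kb (10.2 to 16.2, 195 to 508 counts). MTCO3P12 stood at 2.42 CPM per kb (1.43 to 3.29, 16 to 54 counts) and MTCO2P12 at 1.33 CPM per kb (0.501 to 2.35, 10 to 48 counts). Per length, the mean of MTATP6P1 was 24.7-fold that of MTCO1P12, 61.4-fold that of MTND2P28, 316-fold that of MTCO3P12 and 574-fold that of MTCO2P12. The ranges over the 12 libraries did not overlap between neighbours in this order, except for MTCO3P12 and MTCO2P12, which overlapped. MTATP6P1, with the highest level, had no identical window of 150 bases. Its share of identical windows of 100 bases was smaller than those of MTCO1P12 and MTND2P28. The handling of reads with mismatches or several matches is not given, and whether such windows bear on the levels was not tested.

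**Figure D1:**
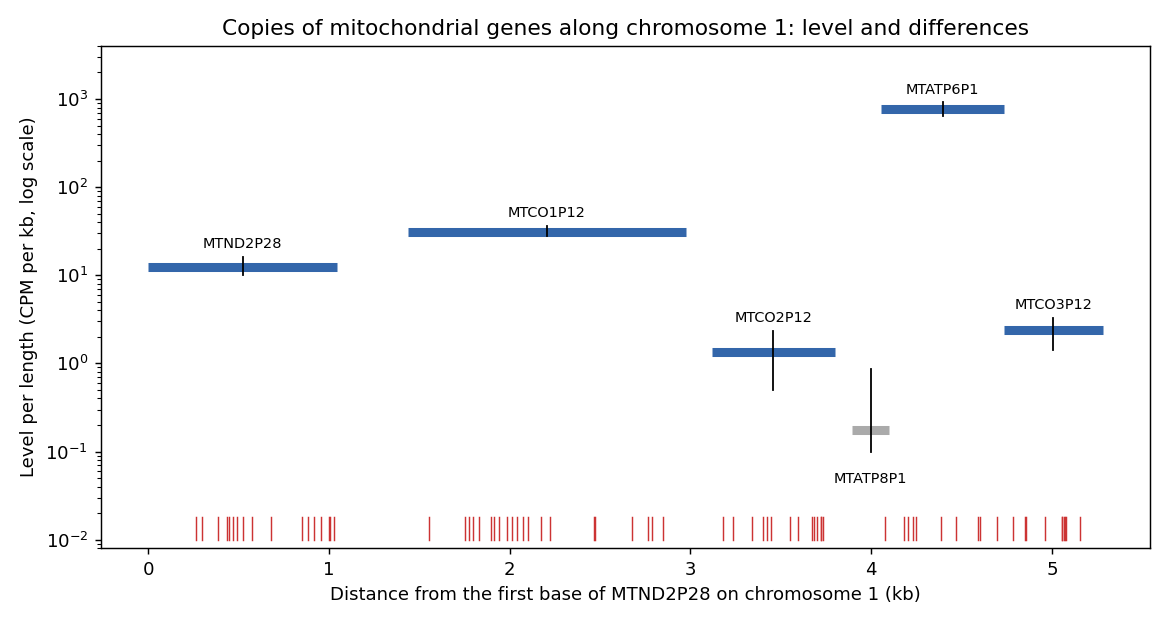
The 5 copies (blue) and MTATP8P1 (grey) drawn to scale along chromosome 1, at their mean level in CPM per kb on a log axis, with the x axis in kb from the first base of MTND2P28. Black lines give the range over the 12 libraries, cut at the 0.1 mark for MTATP8P1, which had 0 counts in some, and red ticks mark the positions at which the 5 copies differ from the mitochondrial gene. MTATP6P1 stands at 765 CPM per kb, with MTCO2P12 at 1.33 and MTCO3P12 at 2.42 CPM per kb on its sides.

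The rows next to MTATP6P1 held far fewer counts. Counts per gene do not show where within MTATP6P1 its reads lie, so the course of the level at its edges was not examined. MTATP8P1, a copy of the gene of another ATP synthase subunit, overlaps MTATP6P1 by 46 bases, as the parent genes overlap in the mitochondrial genome, and it held 0 to 4 counts a library, 10 in all. MTCO3P12 begins on the last base of MTATP6P1 and held 16 to 54 counts where MTATP6P1 held 7553 to 16118. A read that spans overlapping genes may be left uncounted or given to 1 of them, and how the counting treated it is not given in the sources used here. MTND1P23, a copy of a complex I subunit gene just upstream of MTND2P28, held 2 to 14 counts. MIR6723, a microRNA row inside MTCO1P12 on the minus strand, held 0 in all libraries. Within 50 kb on either side of the 5 copies, the remaining rows were RP5-857K21.4 with 0 to 2 counts a library, and RP5-857K21.2 and WBP1LP6 with 0. No gene around the block was at a comparable level.

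Elsewhere in the genome, copies of mitochondrial genes held few counts. The table lists 386 rows of such copies by name. The 381 other than these 5 held 2526 counts over all 12 libraries, 292 of them had 0 counts throughout, and 7 had enough counts to be tested. The 5 copies on chromosome 1 therefore held 98.5% of all counts assigned to nuclear copies. The next rows were MTND4P12 on chromosome 5 (28 to 61 counts a library, 1.22 CPM per kb) and MTRNR2L12 on chromosome 3, one of the humanin-like copies of the 16S rRNA gene (18 to 51 counts, 1.40 CPM per kb). MTCO1P28, MTRNR2L8, MTRNR2L4, MTND1P8 and MTND5P11 followed with 138 to 177 counts each over the 12 libraries, then MTCO1P40 and MTCO2P2 with 83 and 74, and MTND1P23 with 71. In the copies of this group that were aligned, identity to the parent gene was lower, 95.7% for MTND4P12, 93.0% for MTND5P11, 77.5% for MTCO1P28 and 75.3% for MTND1P8, and none had an identical window of 100 bases. MTATP8P1, inside the block, was 97.6% identical to its parent, had 0 identical windows of 100 bases and was at 10 counts in all.

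Before the groups are compared, the state of the libraries has to be given. TGFBR3, the gene of the expressed construct, was at 413 to 476 CPM in the S534A and at 520 to 574 CPM in the S545A libraries. In the libraries labelled ∆GAG-BG it was at 260, 20.3 and 21.4 CPM for replicates 1, 2 and 3, and in those labelled control vector at 15.9, 259 and 259 CPM, so that replicates 2 and 3 of both groups go against their labels. Replicates 2 and 3 of S545A, of ∆GAG-BG and of control vector were also close to each other, with chi-square values over genes, divided by their degrees of freedom, of 1.37, 1.89 and 1.41, where every other pair of libraries within a group gave 15.6 to 69.1. HSPA5, a chaperone of the endoplasmic reticulum, was at 11860 CPM in replicate 1 of ∆GAG-BG and at 287 to 3906 CPM elsewhere. Replicates 2 and 3 of these 3 groups may not be separate biological samples, and the SDs and tests below count them as 3 libraries a group. For comparisons that use ∆GAG-BG or control vector, some values are also given without replicates 2 and 3 of both. These are log2 differences of some copies and medians of the gene lists. Each of these groups then rests on replicate 1 alone, for ∆GAG-BG the library with HSPA5 at 11860 CPM. Counts of list genes by unadjusted p are given for all libraries. PAX8, KRT7, KRT8, KRT18, VIM and CDH2 were at 115 CPM or more in every library, whereas WT1 was at 3.42 to 8.38 CPM, EPCAM stayed at or below 1.77 CPM and MUC16 and CDH1 held 0 counts. Of the markers of other cells, PTPRC, CD3E and CD68 did not exceed 2 counts in a library, ALB and PECAM1 stayed at or below 0.768 CPM, and COL1A1 was at 7.98 to 17.7 CPM.

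MTATP6P1 varied little between libraries. It was at 558, 562 and 623 CPM in control vector, at 448, 565 and 538 CPM in ∆GAG-BG, at 503, 536 and 458 CPM in S534A, and at 569, 451 and 440 CPM in S545A (replicates 1, 2 and 3). The highest library was a control vector and the lowest an S545A library, and the groups overlapped in each comparison given below. Control vector and S534A did not overlap, but this pair was not compared and its share over all genes was not counted. The group means were 581 ± 36.6, 517 ± 61.1, 499 ± 38.8 and 486.5 ± 71.5 CPM (SD, n = 3 each).

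MTCO1P12 followed a similar course over the libraries at a lower level. Its group mean was lowest in S534A (45.2 CPM, against 46.9 CPM in S545A), whereas that of MTATP6P1 was lowest in S545A. It was at 48.3, 49.5 and 56.1 CPM in control vector, at 44.2, 50.4 and 48.8 CPM in ∆GAG-BG, at 44.9, 47.0 and 43.8 CPM in S534A, and at 51.8, 45.5 and 43.4 CPM in S545A. Its coefficient of variation over the 12 libraries, 7.96%, was the smallest of the 5 copies, and that of MTATP6P1 was 11.5%. In MTCO1P12 too, control vector and S534A did not overlap, at the closest by 48.3 against 47.0 CPM. That pair was not compared, and its share over all genes was not counted.

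MTND2P28 was at 14.3, 15.8 and 14.96 CPM in control vector, at 10.6, 13.5 and 11.3 CPM in ∆GAG-BG, at 10.8, 16.9 and 11.8 CPM in S534A, and at 14.2, 10.8 and 10.9 CPM in S545A. All 3 control vector libraries were above all 3 of ∆GAG-BG, which was so for 2.13% of all genes. The control vector libraries were also above all 3 of S545A, but at the closest only by 14.3 against 14.2 CPM. That pair was not compared, and its share over all genes was not counted. Replicate 2 of S534A was the highest of the 12.

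MTCO3P12 was at 1.42, 1.79 and 1.72 CPM in control vector, at 1.09, 1.35 and 1.13 CPM in ∆GAG-BG, at 1.28, 1.80 and 1.27 CPM in S534A, and at 1.43, 0.784 and 0.820 CPM in S545A. MTCO2P12 was at 0.969, 0.990 and 0.783 CPM in control vector, at 1.04, 0.743 and 1.04 CPM in ∆GAG-BG, at 0.818, 1.60 and 0.910 CPM in S534A, and at 0.892, 0.784 and 0.342 CPM in S545A. Replicate 2 of S534A, the deepest library, was again the highest for both, with 54 counts of MTCO3P12 and 48 of MTCO2P12, and replicate 3 of S545A was the lowest for MTCO2P12, with 10 counts.

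**Figure D2:**
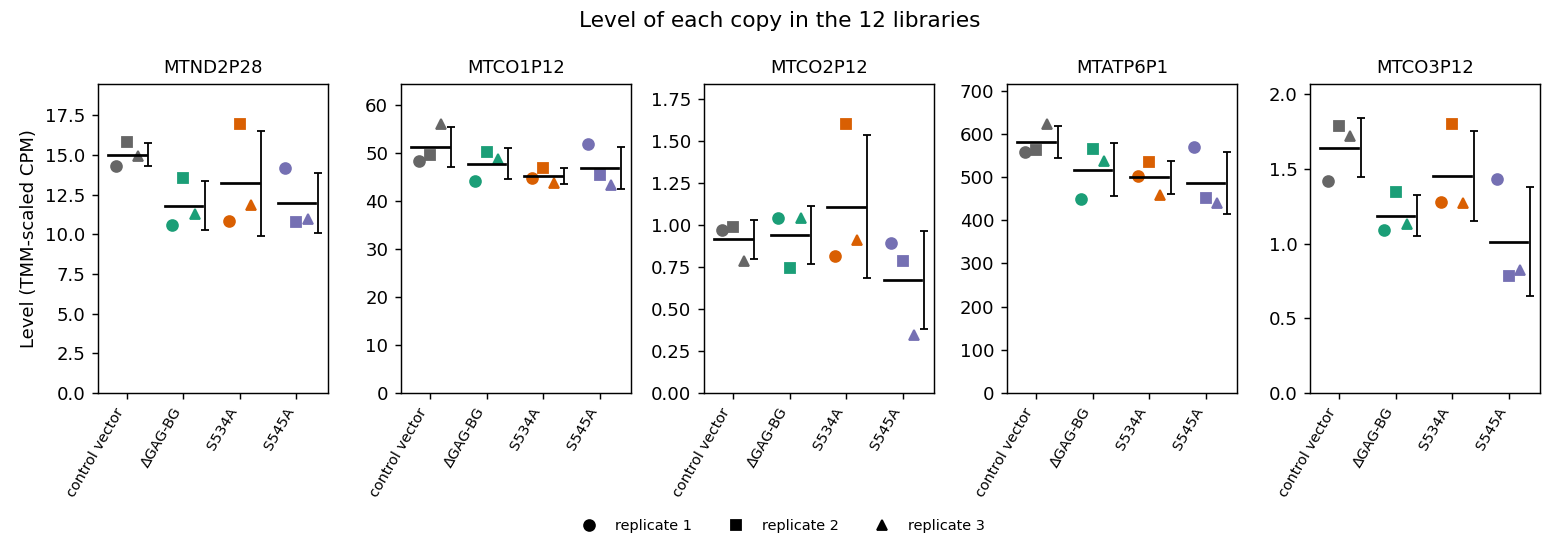
Level of each copy in TMM-scaled CPM (y axis, from 0, a separate scale for each copy) in the 12 libraries by group (x axis), with horizontal lines at the group mean and error bars of 1 SD (n = 3). MTATP6P1 lies between 440 and 623 CPM and MTCO1P12 between 43.4 and 56.1 CPM in all groups, and replicate 2 of S534A is highest for MTND2P28, MTCO2P12 and MTCO3P12.

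The ratio of counts between copies within a library does not depend on how libraries are scaled. MTATP6P1 had 10.9 counts for each count of MTCO1P12 over all libraries. The lowest ratio was 9.90 in replicate 2 of S545A (95% Clopper-Pearson interval of the share, turned into a ratio, 9.25 to 10.6) and the highest 11.5 in replicate 1 of control vector (10.9 to 12.2). The ratios varied by more than counting error, with a chi-square over the 12 libraries, divided by its degrees of freedom, of 2.75. MTCO1P12 to MTND2P28 ranged wider, from 2.77 (2.50 to 3.07) in replicate 2 of S534A to 4.32 (3.76 to 4.98) in replicate 3 of ∆GAG-BG. In replicate 2 of S534A, MTND2P28 was high against both MTCO1P12 and MTATP6P1, with 31.6 counts of MTATP6P1 for each of MTND2P28 against 35.6 to 47.7 in the other 11 libraries. Against MTCO3P12 it was not: MTND2P28 to MTCO3P12 was 9.41 (7.10 to 12.7) in that library and 9.81 over all 12, with a range of 8.44 to 13.8.

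**Figure D3:**
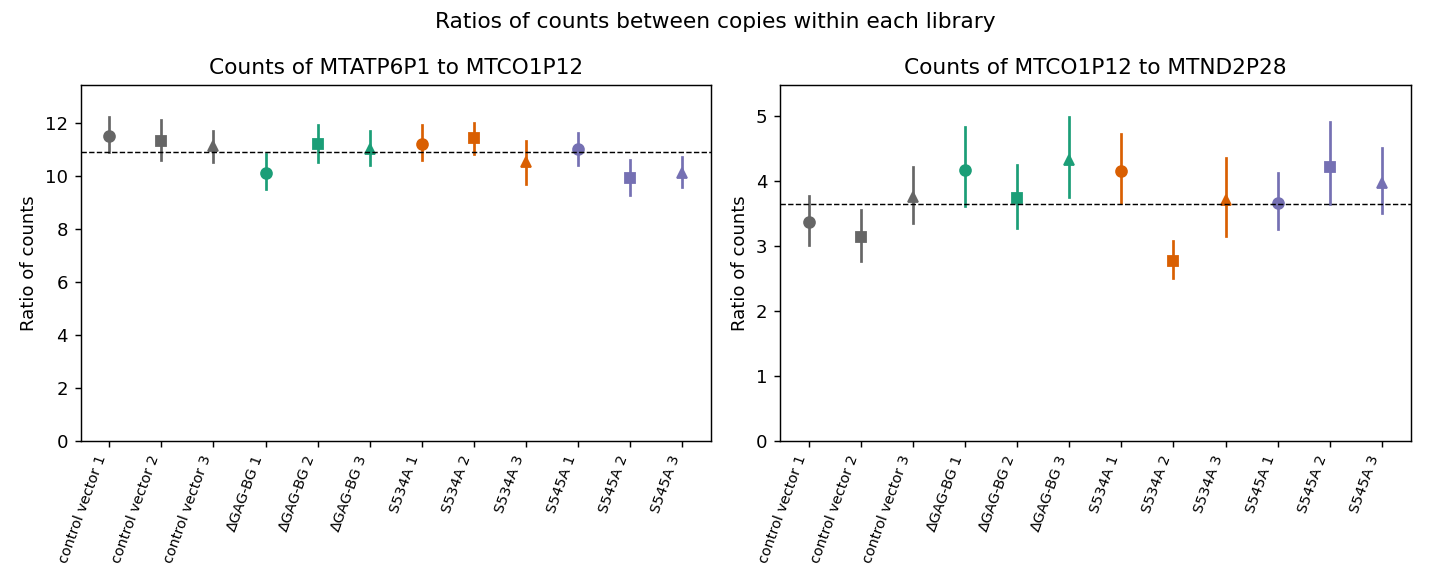
Ratio of counts of MTATP6P1 to MTCO1P12 (left) and of MTCO1P12 to MTND2P28 (right) in each library, with 95% Clopper-Pearson intervals (counting error only) and a dashed line at the ratio over all libraries, 10.9 and 3.65. The left ratios lie between 9.90 and 11.5, and replicate 2 of S534A is the lowest on the right at 2.77.

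Between copies, levels on the log2 scale went along most closely for MTATP6P1 and MTCO1P12 (Pearson r = 0.928 over 12 libraries) and for MTND2P28 and MTCO3P12 (r = 0.878). They were least alike for MTCO1P12 and MTCO2P12 (r = 0.144), the latter resting on 10 to 48 counts. Of the genes tested other than mitochondrial copies, the 10 most like the summed level of the 5 copies were DUSP22 (r = 0.872), TMEM126B (0.863), OTX1 (0.834), ELP4 (0.830), C8orf59, RP11-272P10.2 and RP11-798M19.6 (0.813 each), ZNF415 (0.804), AC007879.5 (0.801) and PCDHA3 (0.796). TMEM126B is an assembly factor of complex I, DUSP22 a protein phosphatase and OTX1 a homeobox transcription factor. These values describe the 12 libraries, which share their groups and scaling, and they are the highest of 16069 genes ranked.

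The first comparison set S545A against S534A, cells whose betaglycan keeps 1 or the other attachment site. None of the 5 copies passed the test, with 0 of 16069 genes called at an adjusted p under 0.05 (0% of genes tested, edgeR quasi-likelihood test with Benjamini-Hochberg adjustment), and 0 of the 5 had an unadjusted p under 0.05, where 4.78% of all genes did. MTATP6P1 differed by -0.04 on the log2 scale (SE 0.121, adjusted p = 0.929, edgeR) and MTCO1P12 by 0.05 (SE 0.0953, adjusted p = 0.861, edgeR). MTND2P28 differed by -0.15 (SE 0.175), and by 0.08 without replicate 2 of S534A. The largest differences were in the rows with the fewest counts, -0.77 for MTCO2P12 (SE 0.363, adjusted p = 0.702, edgeR) and -0.52 for MTCO3P12 (SE 0.265, adjusted p = 0.702, edgeR). Without replicate 2 of S534A they were -0.37 and -0.33, and without replicate 1 of S545A -1.05 and -0.86. The 2 groups overlapped in all 5 copies, while 10.1% of all genes had groups that did not overlap.

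S534A against ∆GAG-BG asked what the site kept in S534A adds to betaglycan without glycosaminoglycan chains. Again 0 of the 5 copies and 0 of all genes were called (0%), and 0 copies had an unadjusted p under 0.05, against 2.99% of all genes. The groups overlapped in all 5 copies, while 5.66% of all genes had groups that did not overlap. The log2 differences were -0.05 for MTATP6P1 (SE 0.121), -0.08 for MTCO1P12 (SE 0.0954), 0.16 for MTND2P28 (SE 0.176), 0.26 for MTCO2P12 (SE 0.353) and 0.30 for MTCO3P12 (SE 0.265), with adjusted p between 0.890 and 0.936 (edgeR). Without replicates 2 and 3 of ∆GAG-BG and control vector, MTATP6P1 was at 0.15 and MTCO1P12 at 0.03, so the sign of both turned, and the lowest adjusted p of a copy was 0.738 (edgeR).

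For S545A against ∆GAG-BG, the copies differed by 0.02 to -0.51 on the log2 scale: MTATP6P1 by -0.09 (SE 0.121), MTCO1P12 by -0.03 (SE 0.0953), MTND2P28 by 0.02 (SE 0.176), MTCO3P12 by -0.22 (SE 0.273) and MTCO2P12 by -0.51 (SE 0.374). None was called, as was no other gene (0%), with an adjusted p of 1 for all 5 (edgeR). None had an unadjusted p under 0.05, against 1.1% of all genes. In no copy were the groups apart without overlap (5.05% of all genes). Without replicates 2 and 3 of ∆GAG-BG and control vector, MTATP6P1 was at 0.12 and MTCO1P12 at 0.08, again with the opposite sign.

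∆GAG-BG against control vector compared cells with and without the construct that lacks both sites. No copy and no gene was called (0%), and none of the copies had an unadjusted p under 0.05 (0.871% of all genes did). In 2 of the 5 copies, MTND2P28 and MTCO3P12, all 3 ∆GAG-BG libraries were below all 3 control vector libraries, which was so for 2.13% of all genes (4.87% did not overlap in either direction). MTND2P28 was at 11.8 ± 1.52 against 15.02 ± 0.736 CPM (SD, n = 3 each), a log2 difference of -0.35 (SE 0.175) with an adjusted p of 1 (edgeR). MTCO3P12 was at 1.19 ± 0.139 against 1.64 ± 0.198 CPM, a log2 difference of -0.46 (SE 0.262) with an adjusted p of 1 (edgeR). The two-sided exact permutation test of the CPM gave p = 0.1 for each, the smallest p that 3 against 3 libraries can give, and it takes the close replicates 2 and 3 as separate. With these summed into 1 library, the log2 differences were -0.37 and -0.45, each with an adjusted p of 1 (edgeR). MTATP6P1 differed by -0.17 (SE 0.121), MTCO1P12 by -0.10 (SE 0.0952) and MTCO2P12 by 0.05 (SE 0.360). With only replicate 1 of each group, MTND2P28 was at -0.45, MTCO3P12 at -0.40 and MTATP6P1 at -0.33, none called, with adjusted p of 0.717, 0.852 and 0.683 (edgeR, the lone libraries taken to vary like the other groups). TGFBR3 in these libraries goes against the labels of replicates 2 and 3, so the direction is one between the libraries as labelled.

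**Figure D4:**
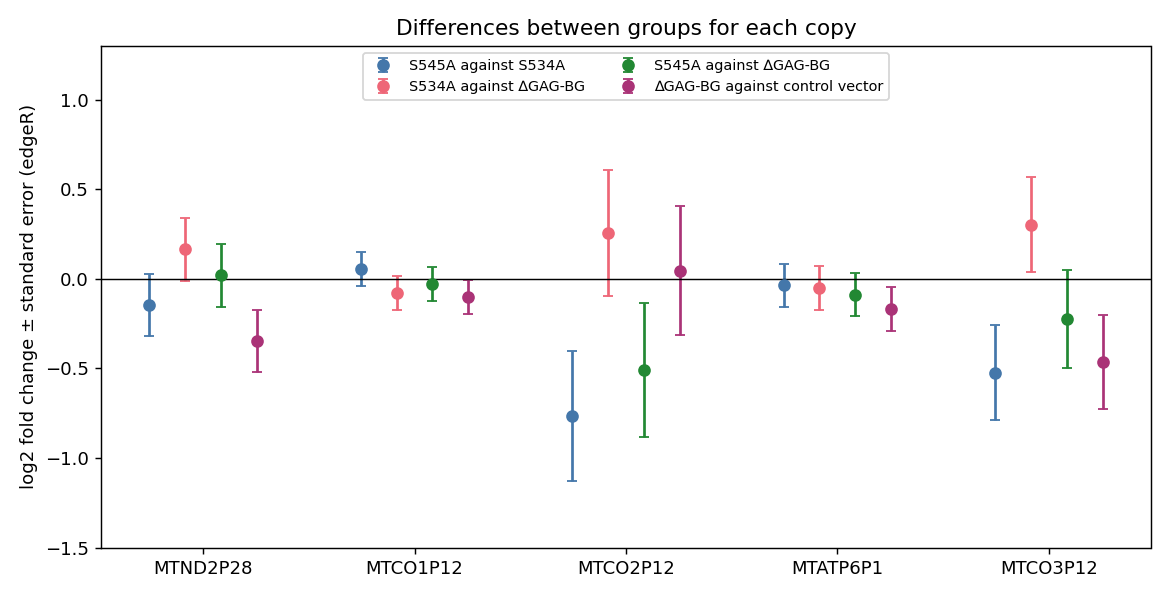
Log2 fold change (y axis) of each copy (x axis) in the 4 comparisons, as points with bars of 1 standard error from edgeR, with the horizontal line at no difference. MTATP6P1 and MTCO1P12 stay within 0.17 of that line in all comparisons, and the widest bars belong to MTCO2P12 and MTCO3P12.

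The 7 tested copies elsewhere in the genome were not called either. Groups did not overlap for 1 of them in S545A against S534A, where they did not for 10.1% of all genes, and for 1 in S545A against ∆GAG-BG, where they did not for 5.05%. MTRNR2L12 was higher in all 3 S545A libraries than in S534A (1.60 against 1.16 CPM, log2 difference 0.45, SE 0.306, adjusted p = 0.702, edgeR), and MTRNR2L8 was lower in all 3 S545A libraries than in ∆GAG-BG (0.414 against 0.654 CPM, log2 difference -0.66, SE 0.399, adjusted p = 1, edgeR, and -0.98 without replicates 2 and 3 of ∆GAG-BG and control vector). Both rest on at most 51 counts in a library.

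Nuclear genes that work with the mitochondrial genome were looked at beside its rows, which are listed at 0. Of the genes that transcribe, process and maintain that genome, such as POLRMT and TFAM, 32 of 32 were tested, and of the nuclear-encoded subunits of complexes I, IV and V, 62 of 65. None was called in any comparison (0% of all genes were). In S545A against S534A, 59 of the 62 subunit genes had a negative log2 difference and 3 a positive one, with a median of -0.14 where that of all genes tested was -0.00024. The genes of mitochondrial DNA expression stood at 26 negative and 6 positive, with a median of -0.15. The 5 copies had 4 negative and 1 positive, with a median of -0.15, which is the value of MTND2P28. Without replicate 2 of S534A, 3 of the 5 copies were positive with a median of 0.019, and the medians of the lists were -0.060 for the subunits, with 48 of 63 negative, and -0.059 for mitochondrial DNA expression, with 23 of 32 negative. An unadjusted p under 0.05 was found in 2 of the 32 genes of mitochondrial DNA expression (6.25%) and in 0 of the subunits, where 4.78% of all genes had one. They were MGME1 (-0.33, SE 0.141, adjusted p = 0.702, edgeR) and TEFM (-0.38, SE 0.167, adjusted p = 0.702, edgeR). MGME1 is a nuclease of mitochondrial DNA replication, and TEFM the mitochondrial transcription elongation factor. Without replicate 1 or 2 of S534A, or replicate 2 or 3 of S545A, neither had an unadjusted p under 0.05.

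S534A against ∆GAG-BG shares the S534A libraries with that comparison. It had 56 of 62 subunit genes with a positive log2 difference, a median of 0.13, and 24 of 32 genes of mitochondrial DNA expression, a median of 0.12. MTATP6P1 and MTCO1P12 were at -0.05 and -0.08 there. The medians of the lists were 0.048 and 0.059 without replicate 2 of S534A, and 0.25 and 0.19 without replicates 2 and 3 of ∆GAG-BG and control vector. Of the genes of mitochondrial DNA expression, 2 of 32 (6.25%) had an unadjusted p under 0.05, where 2.99% of all genes did. They were MGME1 (0.33, SE 0.141, adjusted p = 0.890, edgeR) and TEFM (0.37, SE 0.167, adjusted p = 0.890, edgeR). Neither had one without replicate 1 of S534A, without replicate 2 of S534A or without replicate 1 of ∆GAG-BG.

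In S545A against ∆GAG-BG, 25 of 62 subunit genes had a positive difference with a median of -0.01, and 11 of 32 genes of mitochondrial DNA expression with a median of -0.03. Without replicates 2 and 3 of ∆GAG-BG and control vector, ∆GAG-BG was replicate 1 alone. Both medians then changed sign, to 0.13 with 54 of 64 positive and to 0.082 with 19 of 32 positive. The subunit median also changed sign when any 1 of replicates 2 and 3 of S545A or of ∆GAG-BG was left out, at 0.0074 to 0.035, and that of mitochondrial DNA expression without replicate 2 of S545A, at 0.013. In ∆GAG-BG against control vector, 12 of 62 and 11 of 32 were positive, with medians of -0.05 and -0.04. These were -0.34 and -0.28 with only replicate 1 of each group, and 0.023 and 0.039 without replicate 1 of control vector, and 0.0085 and 0.010 without replicate 1 of ∆GAG-BG, so the sign of the medians rests on those libraries. NDUFB11, a complex I subunit, was at -0.20 (SE 0.0839, adjusted p = 1, edgeR). It was 1 of 62 subunits (1.61%) with an unadjusted p under 0.05, where 0.871% of all genes had one. It had no such p without replicate 1 or 2 of ∆GAG-BG, or without any 1 replicate of control vector.

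By library, the summed level of the 62 subunit genes ran from 5097 CPM in replicate 1 of ∆GAG-BG to 6303 CPM in replicate 2 of S534A. That of the 5 copies ran from 495.4 CPM in replicate 3 of S545A to 697 CPM in replicate 3 of control vector.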

How the data were processed

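RNA-seq of 12 HEYA8 libraries (total RNA, NEBNext Ultra II kit, paired reads of 150 bases) was used. The authors deposited 1 table of raw gene counts from featureCounts, after FastQC and Trim Galore 0.4.5. The submitters' processing notes also name STAR 2.4, SAMtools 1.2 and mouse builds, although gene names and coordinates in the table are human (GRCh38, as in GENCODE 29). The handling of reads with several matches, of strand and of the mitochondrial genome is not given in the sources used here.

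The 5 copies and the gene lists were chosen with earlier results of these data known. Genes were kept with filterByExpr at a minimum count of 10. After TMM scaling they were tested with the quasi-likelihood test of edgeR 4.0.16 in R 4.3.3, in 1 model of 4 groups, with Benjamini-Hochberg adjustment over 16069 genes. All 5 copies were kept by the filter. Totals of 16410001 to 29504297 counts put 3 counts at 0.1 to 0.182 CPM. Copies were aligned to mitochondrial genes with Biopython 1.88. Correlations used log2(CPM + 0.5) for single genes and log2 CPM for the sum. Besides the 5 copies, named genes were the 10 other copies with most counts, rows within 50 kb with at least 10 counts, the 10 genes most alike, and up to 3 genes a list by smallest unadjusted p; rows below these counts were added by name after their values were seen. Alternatives were DESeq2 1.42.0, limma-voom (limma 3.58.1), other scalings, no filter, a replicate block, only the groups compared, summed or left-out close libraries and each library left out. The lists were also recounted without these libraries, a choice made after seeing the data. Scripts were tested on simulated data.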

Additional observations from a re-analysis of the deposited data

How the results depend on the processing

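The 441 values recomputed under the alternatives were log2 differences of the copies and counts of copies or of all genes called. Of these, 409 were unchanged: a log2 difference kept its sign and its side of the threshold, or a count stayed at 0. The sign turned in 24 log2 differences, and 8 counts of all genes called moved from 0. In no alternative was 1 of the 5 copies called. The number of all genes called, 0 in each comparison, became 1 for S545A against S534A and 5 for S534A against ∆GAG-BG with DESeq2, 1 for each of these with limma-voom and 1 for each without the filter. It became 9 for S534A against ∆GAG-BG and 1 for ∆GAG-BG against control vector without replicates 2 and 3 of ∆GAG-BG and control vector. The cause was not tested. Without those libraries the log2 difference of S534A against ∆GAG-BG turned to 0.031 for MTCO1P12 and 0.15 for MTATP6P1, and that of S545A against ∆GAG-BG to 0.083 and 0.12. With replicates 2 and 3 summed where they were close, MTATP6P1 turned to 0.0228 in S545A against ∆GAG-BG and 0.0231 in S545A against S534A, and MTCO1P12 to 0.0365 in S545A against ∆GAG-BG.

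Leaving out 1 library turned the sign in 17 cases, listed here as the range over the libraries left out and the libraries whose absence turned it. In S545A against S534A the range was -0.28 to 0.085 for MTND2P28 (S534A 2), -0.0208 to 0.11 for MTCO1P12 (S545A 1) and -0.16 to 0.031 for MTATP6P1 (S534A 2, S545A 2 or S545A 3). In S534A against ∆GAG-BG it was -0.0603 to 0.29 for MTND2P28 (S534A 2), -0.13 to 0.46 for MTCO2P12 (S534A 2) and -0.14 to 0.0189 for MTATP6P1 (S534A 3 or ∆GAG-BG 2). In S545A against ∆GAG-BG it was -0.11 to 0.13 for MTND2P28 (S545A 1, ∆GAG-BG 1 or ∆GAG-BG 3) and -0.10 to 0.0267 for MTCO1P12 (S545A 3 or ∆GAG-BG 2). For ∆GAG-BG against control vector it was -0.0544 to 0.18 for MTCO2P12 (∆GAG-BG 1, ∆GAG-BG 3 or control vector 3). Without replicate 1 of S545A, MTCO3P12 was at -0.86 in S545A against S534A with an adjusted p of 0.415 (edgeR), and its adjusted p ranged from 0.33 to 1 over the alternatives.

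Deviations from the group mean of libraries with the same replicate number correlated at -0.28 to 0.49. Deviations within a group of 3 depend on each other, so these values cannot tell whether the numbers pair the libraries. With the replicate block, 0 copies and 0 genes were called, and MTND2P28 in ∆GAG-BG against control vector was at -0.35. Counts of 10 to 54 a library limit MTCO2P12 and MTCO3P12.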
